A study of Mus musculus with 9 samples.

Results

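Expression of 9 genes that natural killer (NK) cells use was followed in bulk RNA sequencing of 9 orthotopic Hepa1-6 tumors, a mouse hepatoma line grown in the liver. The genes are Ncr1, Klrb1c, Klrk1, Klrd1, Klre1, Klrc1 and Klrg1, which encode surface receptors, Eomes, which encodes a transcription factor, and Xcl1, which encodes a chemokine. They were found by gene symbol, and 9 of 9 were present in every tumor among 52161 gene symbols. The hosts were male C57BL/6 mice aged 6 to 8 weeks, given intraperitoneal injections of PBS or of RMP1-14, an antibody to PD-1, at 5 mg per kg. They received 5 injections, 4 days apart, from day 10 to day 26, and whole tumors freed of adjoining liver were taken on day 27. There were 3 PBS tumors, 3 nonresponsive and 3 responsive tumors under anti-PD-1. The treated tumors were picked by size, the largest as nonresponsive and the smallest as responsive, so that response and tumor size cannot be told apart.

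NK cells are innate lymphocytes that kill when activating receptors outweigh inhibitory ones, without a rearranged antigen receptor. NKp46 (Ncr1) and NKG2D (Klrk1) activate, and NK1.1 (Klrb1c) is the antigen by which NK cells of C57BL/6 mice are usually stained. CD94 (Klrd1) pairs with NKG2A (Klrc1) into an inhibitory receptor for the class I-like molecule Qa-1, and KLRG1 is an inhibitory receptor for cadherins. Klrk1, Klrd1, Klrc1, Klrg1, Eomes and Xcl1 are also made by activated CD8+ T cells, while Ncr1 and Klrb1c mark NK cells and related innate lymphocytes more closely.

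RefSeq promoters (GRCm38.p6, the 250 bases before the annotated start) were matched by symbol for 7 of the 9 members, all but Klrd1 and Klrg1. Those of the activating receptors whose values the results turn on (Ncr1, Klrb1c and Klrk1), of the inhibitory receptor Klrc1 and of Xcl1 are shown. Capitals mark the T-box core (GTGTGA or TCACAC, letters read by Eomes and T-bet) and the Runx core (TGTGGT or ACCACA), searched on both strands. No marked matches overlap.
Ncr1, chr7:4337465-4337714, plus strand: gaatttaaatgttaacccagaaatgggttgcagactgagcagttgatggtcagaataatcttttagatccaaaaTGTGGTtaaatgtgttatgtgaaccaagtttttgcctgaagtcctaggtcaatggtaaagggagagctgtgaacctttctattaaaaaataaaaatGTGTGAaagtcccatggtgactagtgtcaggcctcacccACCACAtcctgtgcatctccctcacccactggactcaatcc
Klrb1c, chr6:128788642-128788891, minus strand: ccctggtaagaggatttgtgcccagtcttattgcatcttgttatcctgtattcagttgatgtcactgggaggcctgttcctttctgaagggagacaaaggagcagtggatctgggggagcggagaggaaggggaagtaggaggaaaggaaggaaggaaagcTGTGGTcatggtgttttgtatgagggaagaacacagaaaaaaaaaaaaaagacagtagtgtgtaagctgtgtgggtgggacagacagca
Klrk1, chr6:129623865-129624114, minus strand: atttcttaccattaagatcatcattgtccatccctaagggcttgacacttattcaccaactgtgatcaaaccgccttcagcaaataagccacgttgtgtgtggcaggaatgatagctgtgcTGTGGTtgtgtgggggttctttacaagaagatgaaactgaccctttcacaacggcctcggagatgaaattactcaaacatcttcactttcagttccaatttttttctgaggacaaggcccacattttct
Klrc1, chr6:129678974-129679223, minus strand: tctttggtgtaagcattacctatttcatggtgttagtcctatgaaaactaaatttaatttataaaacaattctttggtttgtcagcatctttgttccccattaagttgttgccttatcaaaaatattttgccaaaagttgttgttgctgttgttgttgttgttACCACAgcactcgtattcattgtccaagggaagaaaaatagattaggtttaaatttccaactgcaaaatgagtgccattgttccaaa
Xcl1, chr1:164935523-164935772, minus strand: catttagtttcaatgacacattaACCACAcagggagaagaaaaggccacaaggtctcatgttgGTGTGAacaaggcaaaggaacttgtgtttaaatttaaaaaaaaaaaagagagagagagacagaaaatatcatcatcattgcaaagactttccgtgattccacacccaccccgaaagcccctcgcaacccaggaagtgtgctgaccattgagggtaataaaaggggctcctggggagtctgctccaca
The Runx core was in the promoters of 6 of 7 matched members, all but Eomes, against 14.2% of 27025 promoters of the same length. The T-box core was in 2 of 7, 80 bases before the start of Ncr1 and 187 bases before that of Xcl1, against 12.2% of promoters. Klre1 held it 42 bases before the other of its annotated starts, and the Runx core was absent before that start. The counts use the first listed start of each gene. A match describes these letters only. Klrb1c, Klrk1, Klrd1, Klre1, Klrc1 and Klrg1 lie on chromosome 6, Ncr1 on chromosome 7, Eomes on chromosome 9 and Xcl1 on chromosome 1.

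Expression was deposited as FPKM, fragments normalised to transcript length and library size, estimated by Cufflinks in each tumor. Depth was known only in relative terms and lay between 0.934 and 1.07 times that of PBS tumor 1, and 12533 to 13328 named entries per tumor reached an FPKM of 1. No tumors were duplicates, with correlations of log2 values between 0.780 and 0.939. Tumors of a group came from separate mice. In bulk tumors, fewer NK cells and less RNA per cell cannot be told apart.

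Rows of the deposited tables can name more than 1 gene. Klrb1c stood in a row with Klrb1b and Gm44511 in 9 of 9 tumors, so its values are those of a locus of 47.8 kb. Klrb1b encodes an inhibitory receptor of the same family, and its part in the row cannot be separated. Klrc1 stood in a row with Klrc2 in 5 of 9 tumors, namely PBS tumor 2, nonresponsive tumor 3 and all 3 responsive tumors. The other 7 members had rows of their own in every tumor.

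The members were expressed at low to moderate levels, with wide ranges within each group. In mean FPKM over the 9 tumors the order was Klrb1c (12.5), Klrd1 (10.7), Klrk1 (7.95), Xcl1 (6.82), Eomes (4.94), Klrc1 (4.33), Klrg1 (2.21), Klre1 (1.32) and Ncr1 (0.660), and the ranges over tumors overlapped between all neighbours in this order. Klrb1c and Ncr1, which mark NK cells more closely, were the highest and the lowest member. Of the Ly49 receptor genes, Klra8 and Klra4 averaged 0.427 and 0.280, Klra17 and Klra7 1.18 and 1.49, and Klra2 18.4. Klra3 averaged 0.508, Klra1, Klra5, Klra6 and Klra9 0.334 or less, and Klra10 0.011, so that Klra2 stood apart from the rest of the family. The cytotoxic genes Gzma and Prf1, shared with T cells, averaged 11.7 and 7.55. RNA of most of these genes was thus present, at levels that differed widely from gene to gene, and its cell source was not tested. The half-width of the Cufflinks interval, as a share of the FPKM, had a median over tumors of 56.3% for Ncr1 and 46.4% for Klre1, against 18.8% for Klrb1c and 12.7% for Eomes.

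**Figure D1:**
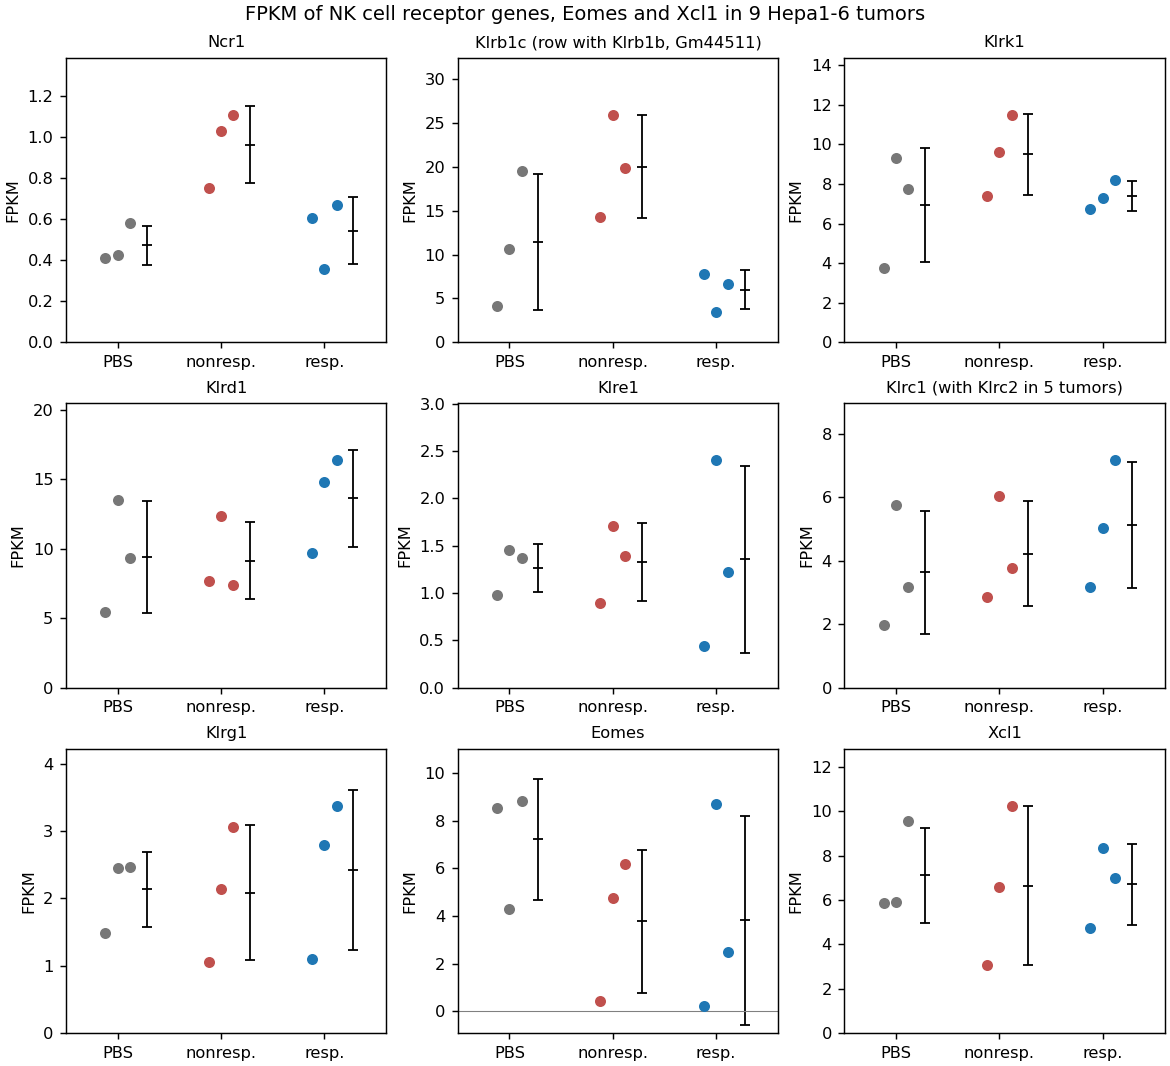
FPKM (linear axis) of the 9 members in each of the 9 tumors, 1 panel per gene. Points are tumors and bars are the mean and SD of 3 tumors per group. Klrb1c and Ncr1 are lower in every responsive tumor than in every nonresponsive one, while Klrd1 is highest in responsive tumor 3 at 16.4.

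The comparison of responsive with nonresponsive tumors asks which members differ between antibody-treated tumors by outcome. The Klrb1c row was lower in responsive tumors before adjustment, and Ncr1 was lower without overlap of the groups. Klrd1 had its highest group mean in responsive tumors, without passing the test. Of the 9 members, 8 reached 1 FPKM in 3 or more of the 6 tumors and were tested with limma on log2(FPKM + 1), and Ncr1 did not. Of these, 1 had an unadjusted p under 0.05, Klrb1c, and 0 had an adjusted p under 0.05. Over all 13830 genes tested 5.50% had an unadjusted p under 0.05, 1.44% being lower in responsive tumors, and 0.116% had an adjusted one. The groups did not overlap for 2 of 9 members, Klrb1c and Ncr1, both lower, against 10.5% of all genes (4.75% lower). The median difference of the 8 tested members was 0.023, against -0.066 over all genes.

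Klrb1c, with Klrb1b and Gm44511 in its row, had FPKM of 7.78, 3.49 and 6.61 in the responsive tumors, 14.2, 25.9 and 19.9 in the nonresponsive tumors and 4.09, 10.6 and 19.5 in the PBS tumors. Every nonresponsive tumor was above every responsive one, and the PBS tumors spanned most of both groups. The responsive mean was 5.96 ± 2.22 (SD, n = 3). The nonresponsive mean was 20.03 ± 5.85 (SD, n = 3), 3.36-fold higher. On the log2(FPKM + 1) scale, which understates changes of low genes, the difference was -1.61 (SE 0.349, 95% interval -2.47 to -0.76). Limma gave an unadjusted p of 0.00374 and an adjusted p of 0.842 (Benjamini-Hochberg over all genes), and the exact two-sided permutation test gave p = 0.10, the smallest that 3 against 3 tumors allow. The difference lay between -2.02 and -1.32 in 16 alternative settings, with the unadjusted p under 0.05 in 16 of 16 and the adjusted p from 0.291 to 1.00. Cufflinks' intervals for single tumors reached at most 9.03 in the responsive group and went down to 12.2 in the nonresponsive group.

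Ncr1 had FPKM of 0.607, 0.359 and 0.667 in the responsive tumors, 0.752, 1.03 and 1.11 in the nonresponsive tumors and 0.409, 0.427 and 0.582 in the PBS tumors. The nonresponsive tumors were above all 6 others. The group mean was 0.963 ± 0.187 (SD, n = 3) in nonresponsive tumors, 1.77-fold that of responsive tumors at 0.544 ± 0.163 (SD, n = 3). The difference of responsive from nonresponsive tumors was -0.35 on the log2(FPKM + 1) scale, and -0.74 with a pseudocount of 0.1. The exact permutation test gave p = 0.10, and without the filter limma gave an adjusted p of 0.897. Cufflinks' intervals overlapped between the groups, reaching from 0.391 to 1.11 in nonresponsive tumor 1 and from 0.292 to 1.04 in responsive tumor 3.

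Klrk1, whose product NKG2D binds stress-induced ligands, had FPKM of 6.71, 7.30 and 8.22 in responsive, 7.41, 9.60 and 11.5 in nonresponsive and 3.74, 9.30 and 7.75 in PBS tumors. The groups overlapped, and Klrk1 differed between responsive and nonresponsive tumors by -0.31 (95% interval -0.84 to 0.23, limma adjusted p = 0.973). Klrd1, the CD94 subunit, had FPKM of 9.70, 14.8 and 16.4 in responsive, 7.69, 12.3 and 7.37 in nonresponsive and 5.43, 13.5 and 9.31 in PBS tumors. Responsive tumors 2 and 3 were above all others, and responsive tumor 1 was within the range of both other groups. Klrd1 differed by 0.53 (95% interval -0.19 to 1.26, limma adjusted p = 0.940).

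Klrc1, the NKG2A subunit, had FPKM of 3.18, 5.03 and 7.17 in responsive, 2.84, 6.05 and 3.77 in nonresponsive and 1.97, 5.76 and 3.17 in PBS tumors. All groups overlapped, and Klrc1 differed between responsive and nonresponsive tumors by 0.22 (limma adjusted p = 0.977). With the Klrc genes that shared rows joined into 1 locus in all tumors, the difference was 0.12 (limma adjusted p = 0.987). The remaining members overlapped too. Klre1, a lectin-like receptor of NK cells, differed by -0.058 (95% interval -0.96 to 0.85), Klrg1 by 0.14 (-0.84 to 1.11), Eomes by -0.16 (-2.47 to 2.15) and Xcl1 by 0.10 (-0.93 to 1.14). Their limma adjusted p-values were 0.995, 0.985, 0.995 and 0.992. The Xcl1 difference turned to -0.072 when tumors were scaled to the same summed FPKM of named genes.

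**Figure D2:**
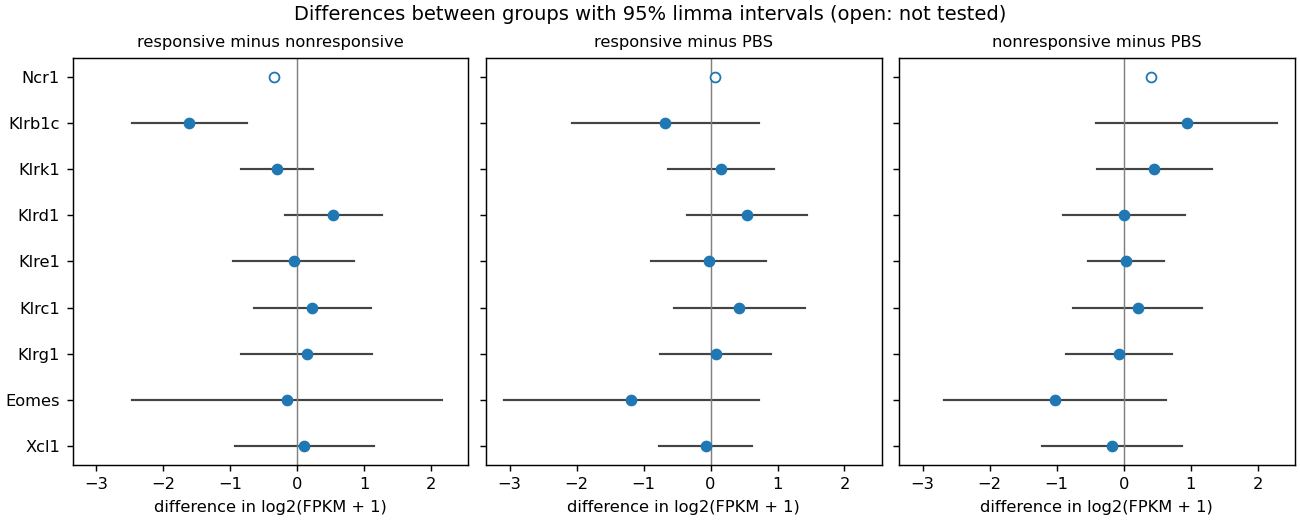
Differences between group means of log2(FPKM + 1) for the 9 members in the 3 comparisons. Filled points carry 95% limma intervals and open points mark Ncr1, which was not tested. Among the tested members an interval clears 0 only for Klrb1c in responsive minus nonresponsive tumors (-2.47 to -0.76).

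Responsive and PBS tumors were compared to see which members differ between small treated tumors and untreated ones. In limma, 0 of 8 tested members had an unadjusted p under 0.05 and 0 an adjusted one, against 17.2% and 0.231% of all 13839 genes. The groups overlapped for 9 of 9 members, while they did not overlap for 11.6% of genes that were higher and 16.4% that were lower. The Eomes mean was 3.82 ± 4.38 (SD, n = 3) in responsive tumors and 7.22 ± 2.53 (SD, n = 3) in PBS tumors. Its difference was -1.18 (95% interval -3.09 to 0.72, limma adjusted p = 0.404). Klrb1c differed by -0.67, Klrd1 by 0.54, Klrc1 by 0.43 and Klrk1 by 0.15. PBS tumor 1 had the lowest Klrk1, Klrd1 and Klrc1 of all 9 tumors and the lowest Klrb1c of its group. Without PBS tumor 1 Klrb1c differed by -1.21, and without responsive tumor 2 Eomes differed by -1.92, each with an unadjusted limma p under 0.05.

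Nonresponsive and PBS tumors were compared to ask which members differ between large treated tumors and untreated ones. In limma, 0 of 8 tested members had an unadjusted p under 0.05 and 0 an adjusted one, against 3.22% and 0.0798% of 13791 genes. Ncr1, outside the fit, was the 1 member of 9 whose groups did not overlap, against 8.21% of genes (3.23% higher). Its PBS mean was 0.472 ± 0.0950 (SD, n = 3), and it was higher in nonresponsive tumors by 0.41 on the log2(FPKM + 1) scale, with p = 0.10 in the exact permutation test. Without the filter limma gave Ncr1 an unadjusted p of 0.0244 and an adjusted p of 0.739, and with a pseudocount of 0.1 as well an unadjusted p of 0.113. Klrb1c differed by 0.94 (limma adjusted p = 0.718), and by 1.41 with an unadjusted p under 0.05 when PBS tumor 3 was left out. Eomes differed by -1.03 (limma adjusted p = 0.718), while Klrd1 and Klre1 differed by 0.0043 and 0.032.

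Across the 9 tumors the members did not move as 1 set. Correlations are descriptions over 9 tumors that share the 3 treatment groups, with no test. Klrd1 and Klrc1, the subunits of 1 heterodimer, were the most alike pair by Pearson r (0.919, Spearman rho = 0.833), with r = 0.810 without PBS tumor 1 and responsive tumor 3. By Spearman rho Klrg1 and Xcl1 were more alike (rho = 0.867, r = 0.823). Klrd1 also followed the mean of 14 T cell genes (r = 0.897, rho = 0.917), as did Klrc1 (r = 0.829, rho = 0.800). For Ncr1 and Klrb1c r with that mean was -0.027 and -0.055, and -0.626 and -0.690 without PBS tumor 1 and responsive tumor 3. Of the 8 lists of other cell types, both had their highest r with the mean of the macrophage genes (0.541 and 0.571), which was 0.216 and 0.165 without PBS tumor 1 and nonresponsive tumor 2. Ncr1 and Klrb1c were alike (r = 0.787, rho = 0.783), and r was 0.607 without nonresponsive tumors 2 and 3. Klrk1 stood between these pairs, with r of 0.629 with Ncr1, 0.668 with Klrb1c, 0.646 with Klrc1 and 0.463 with Klrd1 (rho 0.667, 0.733, 0.617 and 0.183).

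**Figure D3:**
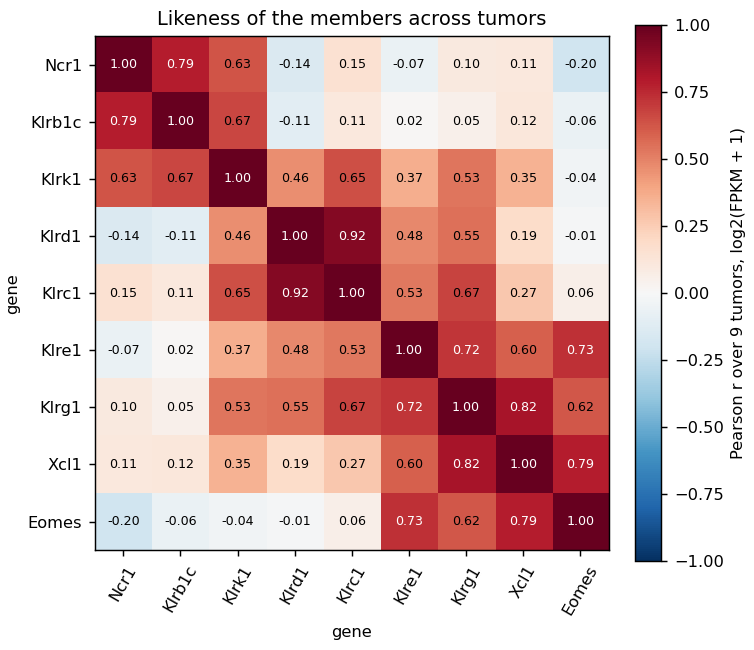
Pearson correlation of log2(FPKM + 1) over 9 tumors between each pair of members, on a color scale. Klrd1 and Klrc1 (0.919) and Ncr1 and Klrb1c (0.787) are alike within each pair, with values from -0.142 to 0.155 between the pairs, and Eomes, Klre1, Klrg1 and Xcl1 lie between 0.598 and 0.823 among themselves. Klrk1 has 0.463 to 0.668 with the genes of both pairs.

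Klre1, Klrg1, Eomes and Xcl1 shared another pattern, noticed after their values were seen. Nonresponsive tumor 1 and responsive tumor 1 were the 2 lowest tumors for each of them, as they were for 24.8% of 15848 genes. Without these 2 tumors r between Eomes and Xcl1 went from 0.785 to 0.359 and between Eomes and Klrg1 from 0.623 to -0.482. Eomes varied most, with FPKM of 8.54, 4.30 and 8.80 in PBS, 0.423, 4.74 and 6.19 in nonresponsive tumors and 0.249, 8.70 and 2.50 in the responsive ones, a range of 35.3-fold. Xcl1, the ligand of the dendritic cell receptor Xcr1, had 5.86, 5.89 and 9.58 in PBS, 3.08, 6.58 and 10.3 in nonresponsive tumors and 4.75, 8.35 and 7.01 in the responsive ones. For both genes all groups overlapped.

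Klrg1 had FPKM of 1.49, 2.45 and 2.46 in PBS, 1.05, 2.14 and 3.06 in nonresponsive tumors and 1.10, 2.79 and 3.38 in the responsive ones. Klre1 had 0.980, 1.45 and 1.37 in PBS, 0.892, 1.71 and 1.39 in nonresponsive tumors and 0.440, 2.40 and 1.22 in the responsive ones. The groups overlapped for both. The same 2 tumors had the lowest Afp and Mki67, which encode alpha-fetoprotein of hepatoma cells and a proliferation antigen, at 0.321 and 0.646 for Afp and 6.70 and 10.6 for Mki67. They had the highest Trdc, the constant segment of the gamma delta T cell receptor, at 35.4 and 32.2, in a row shared with other genes in 8 of 9 tumors. The part of these other cells in the members' values was not tested.

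Eomes did not follow Ncr1, Klrb1c or Tbx21, which encodes the related factor T-bet, with r of -0.197, -0.064 and -0.329. Eomes had r = 0.726 (rho = 0.650) with the mean of 5 tumor and proliferation genes, and r = 0.909 there without responsive tumor 3 and nonresponsive tumor 3. That choice kept nonresponsive tumor 1 and responsive tumor 1, which were lowest in Eomes, Afp and Mki67. The 0.909 thus does not show how far r depends on them. The r of Eomes was -0.833 with the mean of the gamma delta T cell genes, and -0.255 there without nonresponsive tumor 1 and responsive tumor 1. With the mean of the endothelial genes r was -0.763. Genes chosen after their values were seen gave r = 0.915 (rho = 0.683) for Eomes with Afp, 0.936 (rho = 0.767) with Itga2 and 0.949 (rho = 0.700) with Tigit. Others looked at were Mki67 (r = 0.852, rho = 0.600) and the cytotoxic genes Prf1 (0.692, rho = 0.350) and Gzma (0.271, rho = 0.317). All of these r include nonresponsive tumor 1 and responsive tumor 1. Which cells the Eomes RNA came from was not tested. Without nonresponsive tumor 1 and responsive tumor 1, an alternative added after the data were seen, Klrb1c differed between responsive and nonresponsive tumors by -2.02 (limma adjusted p = 0.499), Eomes by -0.14 and Xcl1 by -0.093.

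The 5 genes most like Ncr1 over 9 tumors, of 14455 compared, included Lgals9 (r = 0.915), Naaa (0.896) and Zfp658 (0.894). Lgals9 encodes galectin-9. The mean of the 9 members, of 14447 compared, was most like Gm14154 (r = 0.966), Penk (0.949), Gm30211 (0.933), Grk6 (0.900) and Zdhhc17 (0.897). These are the ends of long rankings over 9 tumors.

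Since several members are also made by T cells, each was set against the mean log2(FPKM + 1) of the 14 T cell genes in the same tumor. This mean was 2.75 ± 0.718 (SD, n = 3) in PBS tumors and 2.95 ± 0.135 (SD, n = 3) in nonresponsive tumors. In responsive tumors it was 3.40 ± 0.214 (SD, n = 3), higher in each of them than in every nonresponsive tumor. Relative to it, Klrb1c was lower in responsive than nonresponsive tumors (difference -2.06), as were Ncr1 (-0.79) and Klrk1 (-0.75), each without overlap of the groups. Klrd1 differed by 0.088 and Klrc1 by -0.22, with overlap. The 3 of 9 members without overlap stand beside 25.9% of all genes that were lower without overlap on this scale, so that the count is near the background. Against PBS tumors 2 of 9 members, Klrb1c (-1.32) and Klrk1 (-0.50), were lower without overlap on this scale, against 17.5% of genes.

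**Figure D4:**
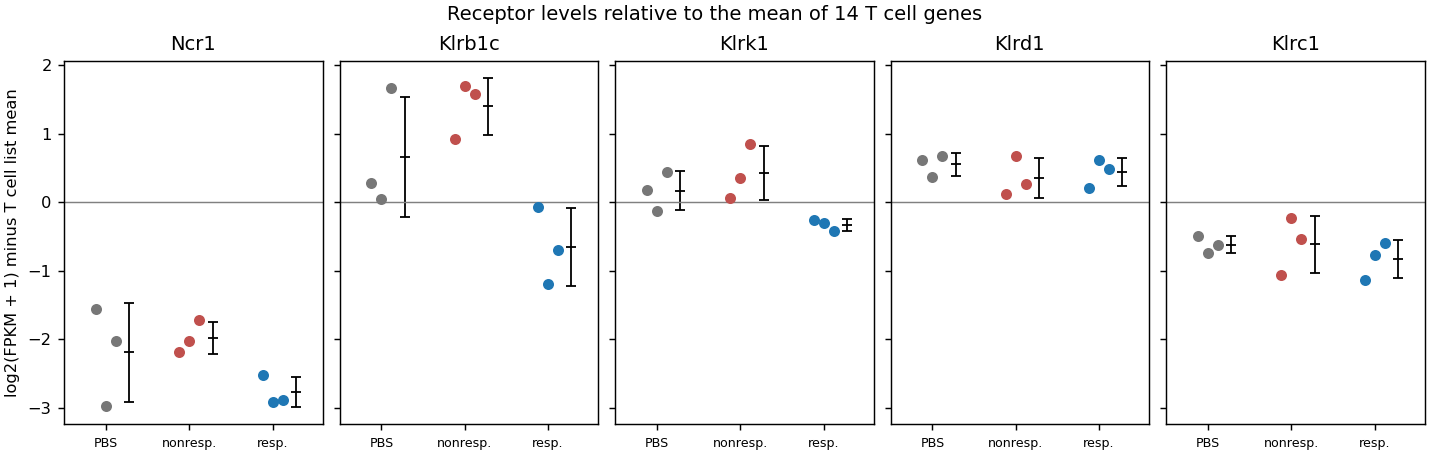
Difference between log2(FPKM + 1) of 5 receptors and the mean of 14 T cell genes in each tumor. Points are tumors and bars the mean and SD of 3 tumors per group. Klrb1c, Klrk1 and Ncr1 sit lower in the responsive tumors than in the nonresponsive ones, and Klrd1 lies between 0.115 and 0.682 in all 9 tumors.

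Markers of other cells moved with the groups, and their part in the members' differences was not tested. In responsive against nonresponsive tumors 3 of 13 T cell genes tested (Cd3d, Cd5 and Cd2) were higher at an unadjusted limma p under 0.05, and 13 of 13 had differences above 0, against 42.5% of genes. Of 7 B cell genes 5 were higher at an unadjusted p under 0.05, and of 14 hepatocyte genes 6, with 0 after adjustment in each list. Of all genes 5.50% had an unadjusted p under 0.05 in either direction. The summed FPKM of the hepatocyte genes was 11953 to 22373 in responsive, 4460 to 14581 in nonresponsive and 492 to 6505 in PBS tumors. That of 9 macrophage genes was 2787 to 8920, 2967 to 7934 and 1318 to 3799 in the same order. Between responsive and nonresponsive tumors 1 of the 9 macrophage genes had a difference above 0, with a median of -0.50, and 0 had an unadjusted limma p under 0.05.

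Of 20 other lectin-like receptor genes 6 passed the filter in responsive against nonresponsive tumors, with 1 lower and 1 higher at an unadjusted limma p under 0.05, against 5.50% of all genes in either direction. The lower one, Klrb1b, is the row of Klrb1c described above and is no separate observation. The higher one, Klrc2 (1.32, groups overlapping), takes the value of the row shared with Klrc1 in 5 tumors, which include all 3 responsive tumors. Klra2 differed by -0.52, with overlap. In the comparisons with PBS tumors 0 of 5 tested were called.

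Of 11 other NK receptor genes tested, 2 were lower in responsive than nonresponsive tumors at an unadjusted limma p under 0.05, against 1.44% of all genes, and 0 after adjustment. Cd244a, which encodes the CD48 receptor 2B4, had FPKM of 2.53, 1.77 and 3.07 in responsive and 6.82, 4.16 and 3.64 in nonresponsive tumors, a difference of -0.74 (SE 0.287, limma adjusted p = 0.886). Fcgr4, an activating Fc receptor abundant in myeloid cells, differed by -0.91 (limma adjusted p = 0.886) and was higher in nonresponsive than PBS tumors before adjustment (0.74, limma adjusted p = 0.718). It was the 1 of 11 called between nonresponsive and PBS tumors, against 3.22% of all genes. Between responsive and nonresponsive tumors the median of the 11 was -0.44, against -0.066 over all genes, and 3 of the 11 had differences above 0. The 9 macrophage genes had a median of -0.50, and the part of such cells in this list was not tested. Against PBS tumors, Tigit was lower in responsive tumors (-2.12, limma adjusted p = 0.281) and Cd27 was higher (2.68, limma adjusted p = 0.282), in a row shared in 9 of 9 tumors, both before adjustment only. Tigit had 155, 77.1 and 145 in PBS, 6.16, 68.1 and 165 in nonresponsive tumors and 9.21, 67.9 and 29.9 in the responsive ones. It was lowest in the same 2 tumors as Eomes. PBS tumor 1, with 155 for Tigit, had the lowest summed FPKM of the 14 T cell genes, at 53.5. Which cells the Tigit RNA came from was not tested.

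Of the adaptors through which these receptors signal, Tyrobp (DAP12) and Fcer1g, at mean FPKM of 472 and 459 and shared with myeloid cells, differed by -0.34 and -0.47 between responsive and nonresponsive tumors, with overlap. Hcst (DAP10), the adaptor of NKG2D, differed by -1.52 and Cd247 by 0.39, also with overlap, each listed at 0 in 1 of the 9 tumors. Zap70 and Lck, kinases of T and NK cells, were higher in responsive tumors before adjustment, by 0.65 (SE 0.185) and 0.60 (SE 0.182), each with a limma adjusted p of 0.886. Lck shared its row with Mir8119 in 9 of 9 tumors. Zap70 and Lck were the 2 of 14 adaptor and signaling genes with an unadjusted p under 0.05, against 5.50% of all genes. Sh2d1a, the adaptor SAP, was higher in responsive than PBS tumors by 0.80 (limma adjusted p = 0.281), 1 of 15 genes called before adjustment, against 17.2% of all genes. Between nonresponsive and PBS tumors 0 of 15 were called, against 3.22%.

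Of 15 ligand genes tested in responsive against nonresponsive tumors 1 had an unadjusted p under 0.05, against 5.50% of all genes. It was Cdh1, which encodes E-cadherin, a ligand of KLRG1. Cdh1 had FPKM of 11.9, 9.76 and 13.4 in responsive, 8.29, 4.57 and 4.34 in nonresponsive and 1.44, 5.84 and 6.08 in PBS tumors. Every responsive tumor was above the 6 others, with differences of 0.95 against nonresponsive tumors (limma adjusted p = 0.886) and 1.36 against PBS tumors (limma adjusted p = 0.281). Hepatocytes also make E-cadherin. The summed FPKM of hepatocyte genes overlapped, at 11953 to 22373 in responsive and 4460 to 14581 in nonresponsive tumors. Their part in the Cdh1 difference was not tested. Between responsive and PBS tumors 2 of 15 ligand genes were higher and 5 lower at an unadjusted p under 0.05, against 17.2% of all genes in either direction. Genes that share a row are counted separately here. The lower ones were the NKG2D ligand gene Ulbp1 (-0.82, limma adjusted p = 0.281), Raet1d, Raet1e and H60b, which are also NKG2D ligand genes and share 1 row (-0.56, limma adjusted p = 0.285), and Cadm1 (-1.46, groups overlapping). The higher ones were Cdh1 and Nectin2, which was listed at 0 in all 3 PBS tumors and at 28.6 to 40.0 in the 6 treated tumors. Nectin2 passed adjustment against PBS tumors in responsive (limma adjusted p = 0.000372) and in nonresponsive tumors (limma adjusted p = 0.00158). In nonresponsive tumors it was the 1 ligand gene called, against 3.22% of all genes before adjustment. Whether the listed 0 values mean absent RNA or come from how entries were built in each tumor was not tested. H2-T23 (Qa-1), the ligand of CD94 and NKG2A, averaged 289 and differed by 0.053 between responsive and nonresponsive tumors, and Clec2d, a ligand of the Klrb1b product, by 0.096.

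Cytokine receptor and transcription factor genes of NK cells gave few calls. Before adjustment 5.50% of all genes were called between responsive and nonresponsive tumors, and 17.2% between responsive and PBS tumors. Il18rap, a subunit of the IL-18 receptor, had FPKM of 5.05, 6.04 and 7.26 in responsive and 11.2, 12.9 and 11.9 in PBS tumors (difference -0.88, limma adjusted p = 0.281). It was the 1 call before adjustment among 14 cytokine genes tested there, and 0 of 15 were called between responsive and nonresponsive tumors. Ikzf3 was higher in responsive than nonresponsive tumors (0.84, limma adjusted p = 0.886) and Tox higher than in PBS tumors (0.80, limma adjusted p = 0.286), each 1 of 12 transcription factor genes and before adjustment only. Tbx21 and Id2 differed by -0.039 and 0.030 between responsive and nonresponsive tumors. Of the genes for NK and innate lymphoid subsets, Itga2, the NK antigen DX5, was lower in responsive than PBS tumors before adjustment (-1.37, limma adjusted p = 0.281), 1 of 9 tested, and 0 of 10 were called between responsive and nonresponsive tumors.

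Of 19 effector genes tested, 0 had an unadjusted limma p under 0.05 between responsive and nonresponsive or between responsive and PBS tumors. In nonresponsive against PBS tumors 5 were lower, all granzyme genes, namely Gzmc (-1.54), Gzmd (-3.94), Gzme (-4.23), Gzmf (-3.62) and Gzmg (-3.36), and 1 of them, Gzmd, passed adjustment (limma adjusted p = 0.0373). Of all genes 3.22% had an unadjusted p under 0.05 in that comparison. Rows of Gzmd to Gzmg were merged in different ways between tumors, so their values are not independent. Gzmd had 199, 316 and 166 in PBS tumors, values of merged rows that Gzmf and Gzmg had there too. In nonresponsive tumors Gzmd had 9.30, 15.4 and 16.2, which none of the other genes had. Row merging thus went with the groups. Its part in the Gzmd difference and adjusted p was not tested. Gzmc, in a row of its own, had 31.1, 46.3 and 33.2 in PBS, 8.58, 11.3 and 17.0 in nonresponsive tumors and 3.63, 54.8 and 63.9 in the responsive ones. Of 7 genes around Xcl1, its receptor Xcr1, in a shared row in 7 tumors, differed by 0.038 between responsive and nonresponsive tumors. Flt3, a growth factor receptor of dendritic cells, was the 1 of 7 called there (0.83, limma adjusted p = 0.886), against 5.50% of all genes before adjustment. Clec9a was higher in every responsive tumor than in every other tumor, by 1.84 against nonresponsive (limma adjusted p = 0.886) and 2.24 against PBS tumors (limma adjusted p = 0.281). In the PBS comparison it was the 1 of 7 called, against 17.2% of all genes. Its row was shared in 9 tumors and listed at 0 in 2.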

How the data were processed

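RNA of 9 tumors was sequenced from Illumina TruSeq libraries. The submitters' processing notes name Bowtie2 2.2.4, TopHat2 2.1.1 and build mm8. The authors deposited Cufflinks gene tables with an FPKM value and its interval per entry and tumor, transcripts being assembled separately in each tumor. Positions in the tables differ from those of GRCm38, so none are given, and promoters carry their own build. FPKM were summed per symbol over the rows naming it and used as log2(FPKM + 1). Genes that reached 1 FPKM in 3 or more of 6 tumors were tested with limma 3.58.1 in R 4.3.3 (lmFit, eBayes with trend), with Benjamini-Hochberg adjustment over all genes. Exact permutation tests (scipy 1.17.1) were two-sided. The fit was tested on simulated data. The authors' table of fold changes and p-values was not used. Depth is unknown beyond relative values, so precision rests on 3 tumors a group. Alternatives were a pseudocount of 0.1, no filter, a filter at 5, upper-quartile and summed-FPKM scaling, joined loci, a fit over the 9 tumors, a block for replicate number, and leaving out each tumor. Members, lists and rules were chosen with earlier results of these data known. The rule for named genes covered the members, the 2 highest genes of each list, list genes with an unadjusted p under 0.05 and no overlap, and the 5 most like Ncr1 or the members' mean. Other genes were named after their values were seen, and not all genes the rule covers are printed, 2 of those most like Ncr1 being not reported here.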

Additional observations from a re-analysis of the deposited data

How the results depend on the processing

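The lower Klrb1c in responsive than nonresponsive tumors kept its direction and an unadjusted p under 0.05 in 16 of 16 alternatives, and no adjusted p passed. Counts of members with an unadjusted p under 0.05 went from 0 to 1 between nonresponsive and PBS tumors with no filter (Ncr1), and ranged from 0 to 1 on leaving out 1 tumor there (Klrb1c without PBS tumor 3) and between responsive and PBS tumors (Klrb1c without PBS tumor 1, Eomes without responsive tumor 2). Scaling to the summed FPKM of named genes, with and without liver genes, turned Xcl1 in responsive against nonresponsive tumors to -0.072 and -0.060 and Klrg1 in responsive against PBS tumors to -0.026 and -0.011, and upper-quartile scaling turned Klre1 there to 0.0090. Without nonresponsive tumor 1 and responsive tumor 1 together, Klre1 turned to 0.11 and Xcl1 to -0.093. The summed scaling moved the median of all genes in responsive against nonresponsive tumors from -0.066 to -0.240. Leaving out tumors gave, between responsive and nonresponsive tumors, Eomes -0.89 to 0.58, Klrc1 -0.010 to 0.47, Klre1 -0.37 to 0.25, Klrg1 -0.13 to 0.46 and Xcl1 -0.29 to 0.44. Between responsive and PBS tumors it gave Klre1 -0.34 to 0.28, Klrg1 -0.14 to 0.39, Klrk1 -0.18 to 0.38 and Xcl1 -0.23 to 0.14. Between nonresponsive and PBS tumors it gave Klrc1 -0.072 to 0.52, Klrd1 -0.31 to 0.28, Klre1 -0.084 to 0.17, Klrg1 -0.29 to 0.20 and Xcl1 -0.51 to 0.22. The cause was not tested. Replicate numbers did not pair the tumors in a steady way, with correlations of deviations from -0.395 to 0.475. The highest, 0.475, was that of nonresponsive tumor 1 and responsive tumor 1, against 0.045 and -0.050 for replicates 2 and 3 of these groups. The replicate block moved the genes with an unadjusted p under 0.05 from 760 to 935, from 2387 to 948 and from 444 to 237. The count of members stayed at 1, 0 and 0. With 3 tumors a group, wide intervals and an unknown depth limit every comparison.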
